A study of Mus musculus with 12 samples.

Results

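The genes described here are Smarcal1 and 9 related ATPases of the SNF2 family that act in DNA repair, Zranb3, Hltf, Shprh, Atrx, Rad54l, Rad54b, Ercc6, Ercc6l and Chd1l. They were picked by symbol, and all 10 were found among the 45792 genes listed and among the 15706 genes with enough counts to be tested. Smarcal1 was included because its RNA was very low in Ncf1-/- neural stem cells (NSCs) and less so in those given Igfbp2. Its values in these comparisons are therefore a description and carry no test, whereas the other 9 genes were included for their function.

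RNA was sequenced from 12 cultures of forebrain NSCs of newborn C57BL/6 mouse pups, 4 per group, after rRNA depletion and with 1 library per culture. The groups were WT, Ncf1-/- given no treatment by the labels and vehicle by the methods, and Ncf1-/- given recombinant mouse Igfbp2 at 100 ng/ml by the labels (the methods name a lower dose). All cells were at the second passage in serum-free medium with EGF and FGF, Igfbp2 was added 48 h after plating and RNA was taken 48 h later. Ncf1 encodes a cytosolic subunit of the Nox2 NADPH oxidase, the Ncf1-/- mice carry the mutation in all cells, and Igfbp2 is a secreted protein that binds insulin-like growth factors.

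SNF2 ATPases use ATP to move along double-stranded DNA, and the members that repair DNA rewind, exchange or reshape DNA strands and nucleosomes. When a replication fork stalls, SMARCAL1, ZRANB3 and HLTF can fold it back into a reversed fork, while HLTF and SHPRH also attach ubiquitin chains to the sliding clamp PCNA. RAD54L and RAD54B drive strand exchange in homologous recombination, ATRX loads histone H3.3, ERCC6 (CSB) starts repair in transcribed genes, ERCC6L (PICH) binds the thin DNA bridges of anaphase, and CHD1L (ALC1) is a remodeller switched on by poly(ADP-ribose).

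Libraries held between 18201622 and 34086554 estimated counts, and levels are given as CPM, counts scaled to a common library size with TMM factors. Some libraries went against what the study states of them. Kdm5d, Uty, Ddx3y and Eif2s3y, which lie on the Y chromosome, together had 105 to 115 CPM in vehicle-treated Ncf1-/- cultures and 107 to 118 CPM in WT cultures 1 to 3, but 7.78 to 9.14 CPM in all Igfbp2-treated cultures and 6.47 CPM in WT culture 4. Xist, the RNA of the inactive X chromosome, had 72.3 to 87.8 CPM in vehicle-treated cultures, which thus held both, 166 to 275 CPM in Igfbp2-treated and 3.87 to 291 CPM in WT cultures. The methods state that vehicle and Igfbp2 cultures were paired from each animal, which these levels go against. Igfbp2 treatment and a difference in the sex make-up of the cells cannot be told apart. The comparisons with WT are not free of such a difference either. Xist in WT reached below and above its vehicle range, and Y-linked RNA was lower in treated cultures than in WT cultures 1 to 3. A second sample sheet in the code of the study lists the library of WT culture 4 as treated with apocynin. Apocynin is an inhibitor of NADPH oxidases. The Smarcal1 fold changes and the counts of the other genes called are therefore also given without this library. Most other values against WT include it, as do those of the lists, neighbours, transcript lengths and markers. Ncf1 had 1 to 7 counts in every library, which does not check the genotype. In bulk RNA, fewer cells of a type and less RNA per cell cannot be told apart.

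The promoters of 3 genes are shown because Smarcal1 was the gene with the large loss, Zranb3 is the fork remodeller that was higher in the same cells, and Rad54l is among the 9 genes with a large rise in Ncf1-/- cells. Each line holds the 250 bases before the start site from RefSeq on GRCm38.p6, 5' to 3' on the strand of the gene. The Smarcal1 stretch is chr1:72583001-72583250 on the plus strand, that of Zranb3 is chr1:128103048-128103297 on the minus strand, and that of Rad54l is chr4:116123691-116123940 on the minus strand. Capitals mark matches on either strand to a CCAAT box (CCAAT), a CHR element (TTTGAA) or an E2F core (GCGGGAA).
Smarcal1: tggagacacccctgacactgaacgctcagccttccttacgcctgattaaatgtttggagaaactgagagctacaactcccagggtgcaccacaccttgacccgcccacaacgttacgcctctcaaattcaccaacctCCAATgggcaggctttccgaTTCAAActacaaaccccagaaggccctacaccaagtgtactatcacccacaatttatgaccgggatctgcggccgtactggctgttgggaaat
Zranb3: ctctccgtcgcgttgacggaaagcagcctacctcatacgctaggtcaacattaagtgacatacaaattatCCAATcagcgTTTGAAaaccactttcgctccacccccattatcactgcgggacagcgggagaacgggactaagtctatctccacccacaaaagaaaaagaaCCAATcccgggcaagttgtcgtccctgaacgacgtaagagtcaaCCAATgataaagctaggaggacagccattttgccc
Rad54l: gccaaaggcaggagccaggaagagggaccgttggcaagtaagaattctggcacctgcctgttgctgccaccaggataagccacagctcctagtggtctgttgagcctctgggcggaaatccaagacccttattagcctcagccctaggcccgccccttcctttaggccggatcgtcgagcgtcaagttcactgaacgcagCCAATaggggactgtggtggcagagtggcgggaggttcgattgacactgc
The Smarcal1 stretch held a CCAAT box starting 113 bases before the start site and, on the other strand, a CHR element starting 93 bases before it. The Zranb3 stretch held 3 CCAAT boxes and 1 CHR element, while that of a second RefSeq start of Zranb3, at chr1:128102472-128102721, held 0 and 2, and the Rad54l stretch held 1 CCAAT box. Of 32851 promoters of this length, 33.8% held a CCAAT box, 16% a CHR element and 3.82% an E2F core. No stretch of the 8 genes with a RefSeq promoter held these E2F letters, and Rad54b and Ercc6l were not matched.

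Smarcal1 fell to a small fraction of its WT level in Ncf1-/- NSCs and lay between these levels in Igfbp2-treated ones. In WT cultures 1 to 4 it had 34.6, 40, 42.5 and 35.7 CPM, in vehicle-treated Ncf1-/- cultures 2.61, 2.08, 1.90 and 2.13 CPM, and in Igfbp2-treated Ncf1-/- cultures 15.1, 17.4, 15.4 and 15.7 CPM. The 3 groups did not overlap, and every treated culture lay between all vehicle and all WT cultures. The counts behind these levels were 641 to 1481 in WT, 43 to 60 in vehicle-treated and 272 to 322 in Igfbp2-treated libraries. The mean in vehicle-treated Ncf1-/- cells was 5.71% of the WT mean, and with Igfbp2 it was 41.6%. The fitted log2 fold change was −4.13 ± 0.12 (SE) between vehicle-treated Ncf1-/- and WT, 2.86 ± 0.12 between Igfbp2 and vehicle, and −1.27 ± 0.10 between Igfbp2-treated Ncf1-/- and WT. Without WT culture 4 these values were −4.19, 2.82 and −1.37. On TPM they were smaller for the first comparison with limma on log2(TPM + 1), −2.88, and for the second on all 3 TPM scales, with 1.36 for log2(TPM + 1), 2.22 for log2(TPM + 0.1) and 2.42 for the ratio of means, and over all alternatives the third ran from −1.80 to −1.24. Among the 15706 genes tested, 93 had a lower log2 fold change between vehicle-treated Ncf1-/- and WT, and 10 had a higher one between the treatments. Smarcal1 lies on the plus strand of chromosome 1 at chr1:72583251-72633134 (GRCm38), and no other annotated gene overlaps it.

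**Figure D1:**
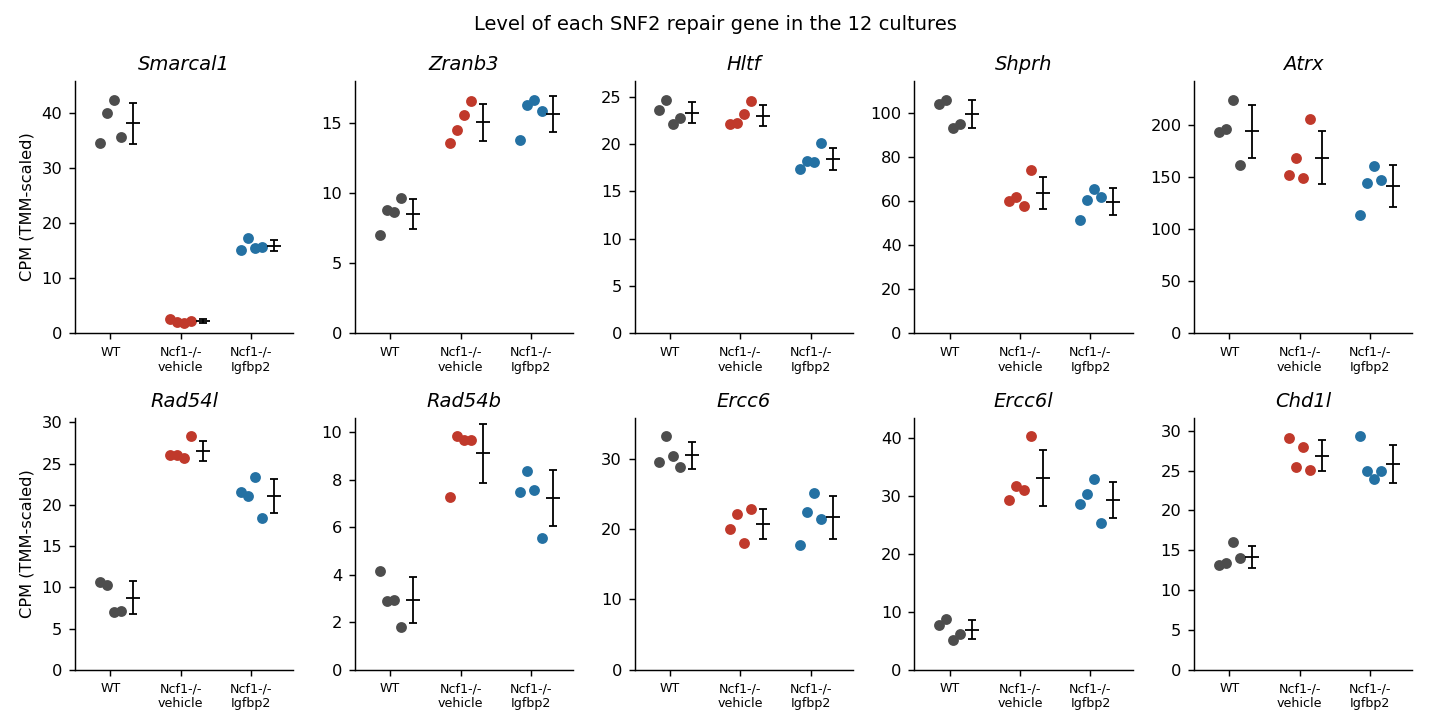
Level of each gene in CPM (TMM-scaled, axes from 0) in the 12 cultures, with the group mean ± SD beside the points (n = 4). Smarcal1 sits between 1.90 and 2.61 CPM in vehicle-treated Ncf1-/- cultures, below all Igfbp2-treated and all WT cultures, whereas Rad54l, Rad54b, Ercc6l, Chd1l and Zranb3 are lowest in WT.

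The place of Smarcal1 among the 10 genes moved accordingly. In TPM, which are per transcript length and can be compared between genes, Smarcal1 came after 2 of the others in WT cells with 10.8 ± 1.86 TPM (SD, n = 4), below Atrx with 41.9 ± 8.03 TPM and Shprh with 14.4 ± 0.924 TPM. The ranges of these 3 genes did not overlap in WT, and Hltf came next with 4.33 ± 0.415 TPM. In vehicle-treated Ncf1-/- cells Smarcal1 was last with 0.58 ± 0.077 TPM, below the 1.88 ± 0.343 TPM of Ercc6, and the ranges of this pair did not overlap. With Igfbp2 it had 3.10 ± 0.587 TPM, between Ercc6l with 3.13 ± 0.876 TPM and Rad54b with 2.72 ± 0.996 TPM, and its range overlapped both. In WT the levels of Hltf and Chd1l, of Chd1l and Ercc6, and of each adjacent pair from Rad54l through Zranb3 and Rad54b to Ercc6l overlapped. Atrx and Shprh kept the first and second place by mean in all 3 groups, but with Igfbp2 the range of Shprh (4.82 to 9.10 TPM) overlapped that of Chd1l (3.98 to 5.57 TPM).

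Of the 9 other genes, 7 differed between vehicle-treated Ncf1-/- and WT cells at an edgeR adjusted p under 0.05, against 57.2% of all genes tested. Zranb3, Rad54l, Rad54b, Ercc6l and Chd1l were higher in Ncf1-/- cells, 5 of 9 against a background of 28.9%. Shprh and Ercc6 were lower, 2 of 9 against 28.2%. The groups did not overlap for any of these 7 genes, but how many of all genes did the same was not counted. The median log2 fold change of the 9 was 0.82, against 0.02 over all genes. Without WT culture 4 the count was again 7.

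**Figure D2:**
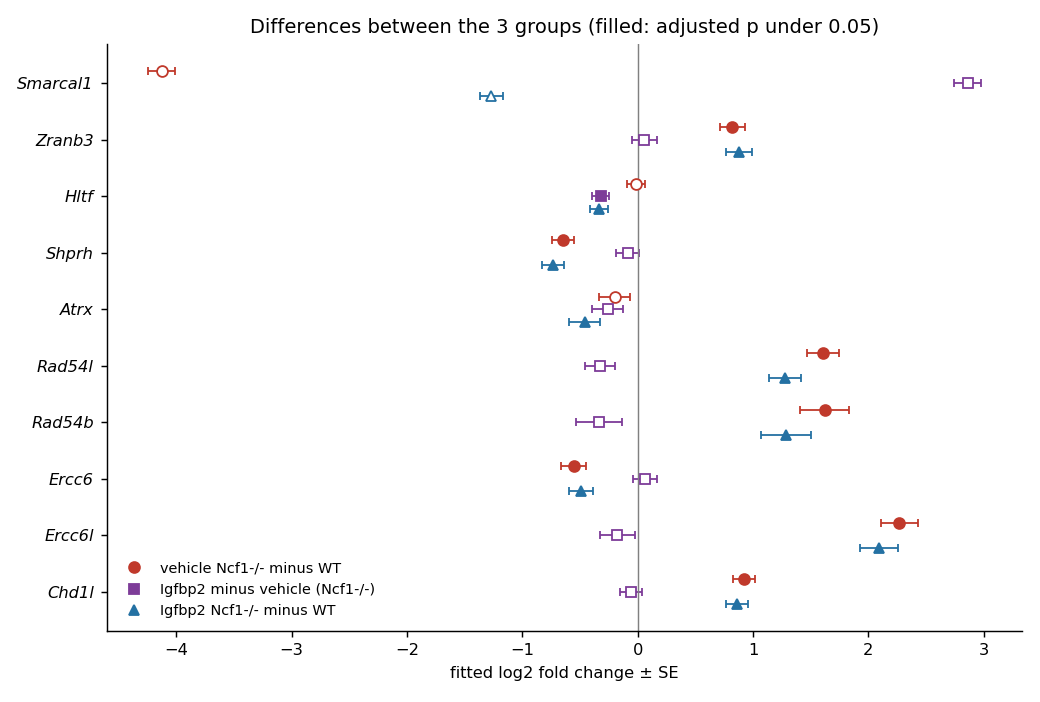
Fitted log2 fold change ± SE of each gene in the 3 comparisons, from the 12 libraries (4 per group), with filled symbols for an edgeR adjusted p under 0.05. Smarcal1 is drawn open because it was chosen on these values and not tested, and only Hltf is filled between the treatments.

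Among the fork remodellers and PCNA ligases, Zranb3 was higher, Shprh was lower and Hltf was near its WT level in vehicle-treated Ncf1-/- cells. Zranb3, which binds ubiquitinated PCNA at stalled forks, had 7.05, 8.80, 8.69 and 9.63 CPM in WT and 13.6, 14.5, 15.6 and 16.6 CPM in vehicle-treated Ncf1-/- cultures. All Ncf1-/- cultures were above all WT cultures, a difference of 0.82 ± 0.11 log2 (SE, adjusted p by edgeR = 3.57e-05). With Igfbp2 it had 13.8, 16.3, 16.7 and 15.9 CPM, which overlapped the vehicle values (0.06 ± 0.11 log2, adjusted p = 0.72). Annotated genes on both strands overlap Zranb3, among them the antisense gene Gm28800, and the strand setting of the counting is not given in the sources used here, so its level is uncertain to that extent.

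Hltf, both a PCNA ubiquitin ligase and a fork-reversing translocase, was the only one of the 9 that passed the test between the treatments. It had 22.1, 22.2, 23.2 and 24.6 CPM in vehicle-treated, 17.4, 18.2, 18.1 and 20.1 CPM in Igfbp2-treated and 23.6, 24.7, 22.1 and 22.8 CPM in WT cultures. The treated cultures were below all others, and the vehicle and WT cultures overlapped. The log2 fold change was −0.32 ± 0.07 between the treatments (edgeR adjusted p = 0.0094, and 0.000332 to 0.0318 over 21 alternatives) and −0.34 ± 0.07 between Igfbp2-treated Ncf1-/- and WT (adjusted p = 0.00164). Between vehicle-treated Ncf1-/- and WT it was −0.01 ± 0.07 (adjusted p = 0.879), a value whose sign turned in 5 of 20 alternative settings.

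Shprh, the other PCNA ubiquitin ligase of the family, had 93.2 to 106 CPM in WT, 57.8 to 74.1 CPM in vehicle-treated and 51.3 to 65.4 CPM in Igfbp2-treated cultures. Both Ncf1-/- groups lay below WT without overlap. The log2 fold change from WT was −0.65 ± 0.10 with vehicle (edgeR adjusted p = 9.18e-05) and −0.74 ± 0.10 with Igfbp2 (adjusted p = 3.16e-05). The treatments overlapped (−0.09 ± 0.10, adjusted p = 0.537). The annotation lists an antisense gene, Gm16577, over Shprh.

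The strand exchange and anaphase factors had the largest rises. Rad54l, which stimulates strand invasion in homologous recombination, had 10.6, 10.3, 7.03 and 7.07 CPM in WT and 26.0, 26.1, 25.7 and 28.3 CPM in vehicle-treated Ncf1-/- cultures. It was 3.05 times higher in the Ncf1-/- cells, or 1.61 ± 0.14 log2 (adjusted p by edgeR = 9.08e-07). With Igfbp2 it had 21.5, 21.1, 23.4 and 18.4 CPM, below every vehicle culture and above every WT culture. The difference between the treatments, −0.33 ± 0.13 log2, did not pass the test with all 12 libraries (adjusted p = 0.0818). It passed in a fit of only the 8 Ncf1-/- libraries (−0.37 ± 0.08, adjusted p = 0.00407), and without WT culture 4 (−0.37, adjusted p = 0.0476) or WT culture 3 (−0.37, adjusted p = 0.0287), and over all alternatives its adjusted p ranged from 0.00407 to 0.196.

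Its paralogue Rad54b had 1.78 to 4.14 CPM in WT, 7.27 to 9.82 CPM in vehicle-treated and 5.55 to 8.35 CPM in Igfbp2-treated cultures. Both Ncf1-/- groups were above WT without overlap, and they overlapped each other. The log2 fold change from WT was 1.62 ± 0.21 with vehicle (edgeR adjusted p = 2.79e-05) and 1.29 ± 0.21 with Igfbp2 (adjusted p = 0.00019), and it was −0.33 ± 0.20 between the treatments (adjusted p = 0.239). Rad54l overlaps the protein-coding gene Lrrc41 on the other strand, and Rad54b overlaps Fsbp on its own strand and the antisense gene Gm11832, so how their reads were divided is uncertain.

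Ercc6l had the largest rise of the 9 genes. Its levels were 7.69, 8.74, 5.05 and 6.24 CPM in WT, 29.4, 31.8, 31.0 and 40.3 CPM in vehicle-treated and 28.6, 30.3, 32.9 and 25.4 CPM in Igfbp2-treated cultures. The Ncf1-/- cultures of either treatment were far above every WT culture and overlapped each other. Ercc6l was 4.82 times higher with vehicle (2.27 ± 0.16 log2, edgeR adjusted p = 2.44e-07) and 4.26 times higher with Igfbp2 (2.09 ± 0.16, adjusted p = 4.27e-07) than in WT. Between the treatments the difference was −0.18 ± 0.15 (adjusted p = 0.408).

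These 3 genes moved beside markers of dividing cells. Zranb3 and Chd1l were likewise higher than in WT in both Ncf1-/- groups and did not pass between the treatments. The summed level of 10 proliferation markers was 281 to 512 CPM in WT, 1220 to 1600 CPM in vehicle-treated and 1140 to 1480 CPM in Igfbp2-treated cultures. All 10 markers were higher in vehicle-treated Ncf1-/- than in WT cells by edgeR (background 28.9%), with a median log2 fold change of 2. Examples were Rrm2 (2.48), Ccna2 (2.43), Cdk1 (2.42) and Bub1 (2.32). Between the treatments 1 of 10 passed, against 25% of all genes, namely Tyms, which was lower. The part of this in the levels of Rad54l, Rad54b, Ercc6l, Zranb3 and Chd1l was not tested.

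The chromatin remodellers went separate ways. Chd1l, recruited to damage by poly(ADP-ribose), had 13.1 to 16.1 CPM in WT, 25.1 to 29.1 CPM in vehicle-treated and 24.0 to 29.3 CPM in Igfbp2-treated cultures. It was higher than in WT with vehicle (0.92 ± 0.09 log2, edgeR adjusted p = 3.8e-06) and with Igfbp2 (0.86 ± 0.10, adjusted p = 6.49e-06), with no overlap with WT in either case. The treatments overlapped (−0.06 ± 0.09, adjusted p = 0.666).

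Ercc6, the Cockayne syndrome group B gene, ran from 28.8 to 33.2 CPM in WT, from 18.1 to 22.8 CPM with vehicle and from 17.8 to 25.1 CPM with Igfbp2. Both Ncf1-/- groups were below WT without overlap, by −0.56 ± 0.11 log2 with vehicle (edgeR adjusted p = 0.000617) and by −0.49 ± 0.11 with Igfbp2 (adjusted p = 0.00139). The call with vehicle was lost on the 3 TPM scales (adjusted p = 0.0753, 0.0931 and 0.143), and over all alternatives its adjusted p ranged from 1.29e-05 to 0.143. The difference between the treatments was 0.06 ± 0.11 (adjusted p = 0.697).

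Atrx, the remodeller that loads H3.3 together with DAXX and the most abundant of the 10, had 193, 196, 224 and 161 CPM in WT, 152, 168, 149 and 205 CPM in vehicle-treated and 113, 144, 160 and 147 CPM in Igfbp2-treated cultures. Vehicle-treated cultures overlapped both other groups, and treated cultures lay just below WT. The log2 fold change from WT was −0.20 ± 0.13 with vehicle (edgeR adjusted p = 0.227) and −0.46 ± 0.14 with Igfbp2 (adjusted p = 0.00987). Between the treatments it was −0.26 ± 0.14 (adjusted p = 0.174). Without vehicle culture 4, the highest of its group, the difference between vehicle-treated Ncf1-/- and WT was −0.35 and passed (adjusted p = 0.0399), and over all alternatives its adjusted p ranged from 0.0399 to 0.964. Atrx and Ercc6l are X-linked, and the part of the Y-linked split of the cultures in their levels was not tested.

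Between the treatments, then, 1 of the 9 genes passed the test, against 25% of all genes tested. None was higher (background 14.2%) and 1 was lower (background 10.7%), and the median log2 fold change of the 9 was −0.18, against 0.04 over all genes. At an unadjusted p under 0.05 edgeR gave 0 higher and 2 lower, a rule whose share over all genes was not counted. DESeq2 called 0 higher and 1 lower, against 2442 higher and 1845 lower of all 15706 genes. Without WT culture 4 edgeR called 2, Hltf and Rad54l. The scaling matters here. With library totals and no TMM factors the median of all genes moved to −0.24 (0.19 between vehicle-treated Ncf1-/- and WT), and 7 of the 9 were then called lower. On that scale 648 genes were called higher and 5258 lower over the whole table, against 2238 and 1685 with TMM factors. Between vehicle-treated Ncf1-/- and WT that split was 6024 and 3159 with library totals and 4545 and 4433 with TMM factors.

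Compared with WT, Igfbp2-treated Ncf1-/- cells differed in 9 of the 9 genes, against 62.4% of all genes tested. Higher were 5 of 9, the same 5 as with vehicle, against a background of 31.6%, and lower were Hltf, Shprh, Atrx and Ercc6, 4 of 9 against 30.8%. The median log2 fold change of the 9 was 0.86, against −0.01 over all genes. Without WT culture 4 the count was again 9. With the Tukey test on TPM the 5 higher calls were lost and 3 lower ones passed, and with limma on TPM Zranb3 did not pass (its adjusted p ran from 3.15e-11 to 0.572 over all alternatives). This comparison shares its WT libraries with the first and its treated libraries with the second. Zranb3 differed by 0.88 ± 0.11 (edgeR adjusted p = 2.04e-05) and Rad54l by 1.28 ± 0.14 (adjusted p = 5.2e-06).

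Relative to the gap that vehicle-treated Ncf1-/- cells had to WT, the difference between Igfbp2 and vehicle was 2.85 of 4.11 for Smarcal1 on the log2 scale of the group means. The corresponding values were −0.33 of −1.62 for Rad54l, −0.34 of −1.67 for Rad54b, −0.17 of −2.27 for Ercc6l, −0.06 of −0.93 for Chd1l and 0.06 of 0.56 for Ercc6. For Hltf (−0.32 against 0.02), Atrx (−0.26 against 0.2), Shprh (−0.09 against 0.65) and Zranb3 (0.06 against −0.82) the treated mean was farther from WT than the vehicle mean. Of the differences between the treatments other than that of Smarcal1, that of Hltf passed the test. Both values of each pair are taken from the same vehicle mean, so a deviation of the vehicle cultures would move both the same way.

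The file also gives, per library, the mean length of the transcripts of a gene weighted by their abundance, which moves with the mix of isoforms. For Smarcal1, with 9 annotated transcripts, it was 2652 to 2858 bases in WT, 2893 to 3038 bases in vehicle-treated and 2853 to 3068 bases in Igfbp2-treated cultures. The vehicle-treated range lay above that of WT, and the treated range overlapped both. Of the 8 genes with several transcripts, 1, Smarcal1 itself, had groups without overlap between vehicle-treated Ncf1-/- and WT (9.77% of 10521 genes), 0 had so between the treatments (10.2%) and 0 between Igfbp2-treated Ncf1-/- and WT (11.9%). For the other 7 genes, such as Hltf with 3995 to 4332 bases with vehicle and 3786 to 4230 bases in WT, the lengths overlapped in all 3 comparisons.

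Smarcal1 lies on chromosome 1 near Igfbp2, the gene of the protein added to the cultures. The Igfbp2 gene starts 191 kb beyond the end of Smarcal1 and had a mean of 98.1 CPM in WT, 685 CPM in vehicle-treated and 1100 CPM in Igfbp2-treated cultures. It was higher in vehicle-treated Ncf1-/- than in WT cells (2.80 log2, edgeR adjusted p = 0.000637). Between the treatments the difference was 0.68 ± 0.51 (SE) and did not pass (adjusted p = 0.338). All treated cultures, with 1020 to 1280 CPM, were nonetheless above all vehicle cultures, with 636 to 768 CPM. The fit uses 1 estimate of the spread for the 3 groups, and the WT cultures ran from 27.4 to 228 CPM. Of the 5 tested genes on each side of Smarcal1, 2 rose and 3 fell between WT and vehicle-treated Ncf1-/- cells, 5 of 10 against 57.2% of all genes tested. The nearest on the left, March4, a ubiquitin ligase gene, differed by −0.39 (adjusted p = 0.451) and the nearest on the right, the ribosomal protein gene Rpl37a, by 0.15 (adjusted p = 0.352). Higher were Igfbp2 and Xrcc5 (0.41), the Ku80 gene of end joining, and lower were Tmem169 (−2.23), Igfbp5 (−0.89) and Tns1 (−0.86). Between the treatments 4 of the 10 were called against 25% of all genes. All 4 were higher (background 14.2%), namely Pecr (0.70), March4 (1.26), Igfbp5 (1.34) and Tns1 (0.80). Between Igfbp2-treated Ncf1-/- and WT 5 of the 10 were higher and 1 lower, against 31.6% and 30.8% of all genes.

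**Figure D3:**
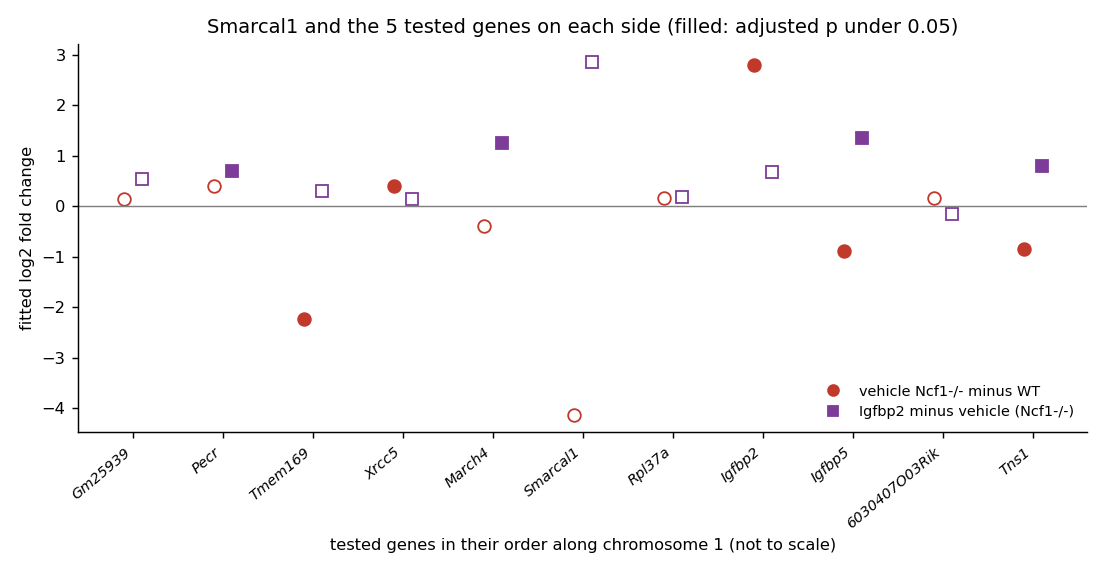
Fitted log2 fold change of Smarcal1 and of the 5 tested genes on each side, in their order along chromosome 1 (not to scale), between vehicle-treated Ncf1-/- and WT and between Igfbp2 and vehicle. Filled symbols have an edgeR adjusted p under 0.05, Smarcal1 is open because it was not tested, and its values of −4.13 and 2.86 lie beyond those of its nearest neighbours on either side.

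The genes whose log2 CPM over the 12 libraries was most like that of Smarcal1 were Pcdhga10, a protocadherin, Ndrg3, Tbc1d9b, Ahdc1 and Cul7, a cullin, with Pearson r between 0.967 and 0.980. The 12 libraries fall into 3 groups, so that r mainly follows the group means, and 276 of the 13762 genes compared had an r of at least 0.9. The differences of these genes were smaller than those of Smarcal1. Pcdhga10 had means of 20 CPM in WT, 12.1 CPM in vehicle-treated and 17.4 CPM in Igfbp2-treated cultures, and Ahdc1 had 93.4, 44.4 and 81.2 CPM, which were fitted log2 fold changes between vehicle-treated Ncf1-/- and WT of −0.73 and −1.07.

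Other ATPases of the SNF2 family, beyond the 10 genes described here, were mostly lower in Ncf1-/- cells. This list is not free of repair genes and holds Ercc6l2, Smarcad1 and Ino80. Of 22 listed, 21 were tested, since the symbol Srcap belongs to more than 1 gene ID. In vehicle-treated Ncf1-/- against WT cells 14 were lower (background 28.2%), 2 were higher (28.9%) and 5 did not pass, with a median log2 fold change of −0.49, against 0.02 over all genes. The largest differences were in Chd5 (−2.57), a neuronal remodeller, Hells (1.88), a remodeller of dividing cells, Chd3 (−1.03) and Smarca1 (−1.02). Between the treatments, with backgrounds of 14.2% higher and 10.7% lower, 5 were higher (Smarca2, Smarca4, Chd3, Chd4 and Chd9) and Smarcad1 was lower (−0.38, edgeR adjusted p = 0.0136), with a median of 0.10. Between Igfbp2-treated Ncf1-/- and WT 3 were higher (background 31.6%) and 10 lower (30.8%).

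The partners of the repair ATPases were described by lists written from general knowledge. Their counts stand against the same backgrounds, 28.9% higher and 28.2% lower between vehicle-treated Ncf1-/- and WT and 25% called between the treatments, and their medians against 0.02 and 0.04 over all genes. Of 13 genes of fork protection and PCNA ubiquitination, 10 rose from WT to vehicle-treated Ncf1-/- cells and the other 3 did not pass, with a median of 0.80. Examples were the PCNA ubiquitin ligase Rad18 (1.55), Pcna itself (1.46), the RPA subunit Rpa2 (1.27), to which SMARCAL1 binds as part of the RPA complex, and the deubiquitinase Usp1 (1.20). Between the treatments 1 of 13 passed, the repriming polymerase gene Primpol (−0.56, edgeR adjusted p = 0.00642). Of 11 strand exchange genes that work with RAD54, 8 were higher and the other 3 did not pass (median 0.98), among them Rad51ap1 (2.21), Rad51b (1.67), Palb2 (1.44) and Rad51c (1.30). Between the treatments Rad51ap1 (−0.61) and Rad52 (−0.47) were lower and the other 9 did not pass.

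Of 9 genes of anaphase bridge resolution, the setting of ERCC6L, 8 were higher and 1, Bend3 (−0.75), was lower in vehicle-treated Ncf1-/- cells. The largest rises were in the kinase genes Aurkb (2.16) and Plk1 (1.91), in topoisomerase Top2a (1.94) and in Incenp (1.65), and 0 of 9 passed between the treatments by edgeR, where 1 was lower at an unadjusted p under 0.05 and 1 was called lower by DESeq2. The partners of ERCC6, ATRX and CHD1L had no common direction. Of 9 genes of transcription-coupled repair 3 were higher (Elof1 0.48, Tcea1 0.46 and Gtf2h4 0.44) and Gtf2h1 was lower (−0.36). Of 8 genes of H3.3 deposition 3 were higher, with Dek (1.19) first, and 2 lower, and of 5 genes of PARP signalling Parp2 (0.81) and Xrcc1 (0.41) were higher while Parp1 (−0.77), whose product makes most poly(ADP-ribose), was lower. Between the treatments Gtf2h1 (−0.41), Daxx (−0.24), the partner of ATRX, and Dek (−0.40) were lower, and 0 of 5 genes of the PARP list passed by edgeR, also 0 at an unadjusted p under 0.05 and 0 by DESeq2.

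**Figure D4:**
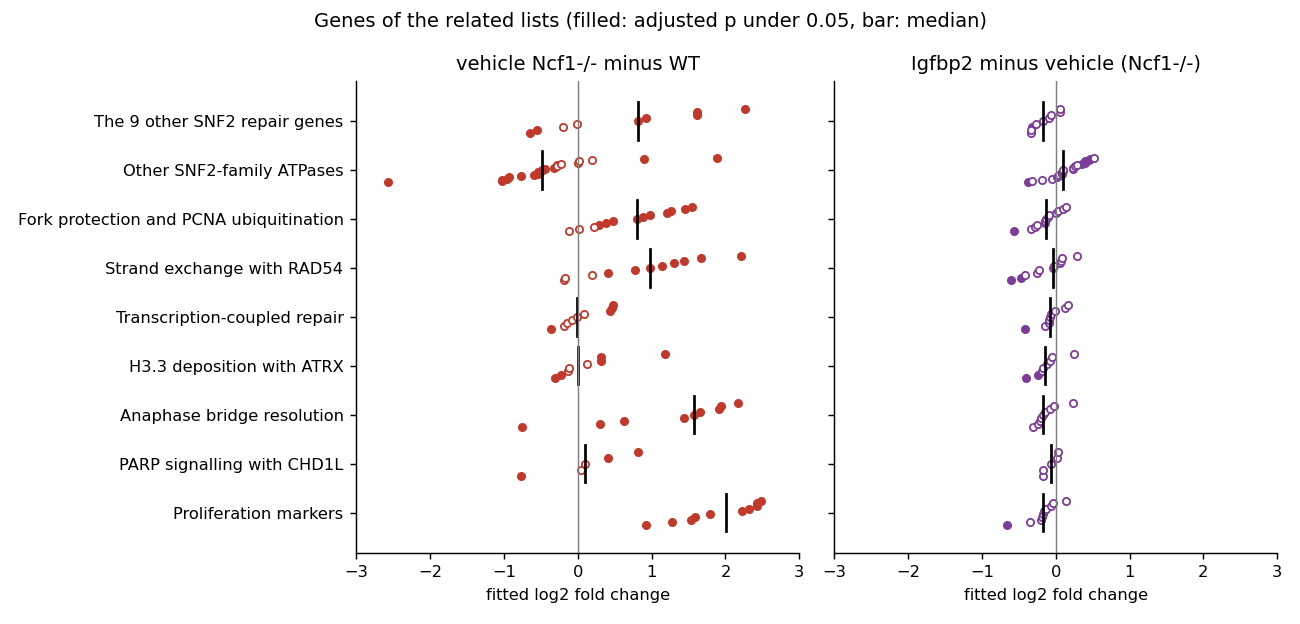
Fitted log2 fold change of the genes of each list between vehicle-treated Ncf1-/- and WT and between Igfbp2 and vehicle, with 1 point per gene, filled for an edgeR adjusted p under 0.05, and a bar at the median. The strand exchange, anaphase bridge and proliferation lists have medians of 0.98, 1.57 and 2 in the first comparison and of −0.03, −0.18 and −0.17 in the second.

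Markers of other cell types also differed between the genotypes beside these results. Their counts stand against 28.2% of all genes called lower and 28.9% called higher between vehicle-treated Ncf1-/- and WT. The summed level of 7 oligodendrocyte genes was 2540 to 8300 CPM in WT and 2030 to 2190 CPM in vehicle-treated Ncf1-/- cultures, where 5 of 7 were lower (Mbp, Mag, Mog, Sox10 and Cnp) and Olig1 and Olig2 were higher. Olig1 and Olig2 made up most of the sum with vehicle, with means of 1450 and 427 CPM, whereas Mbp, Mag and Mog were nearly absent there. Cnp, also a myelin gene, fell less far, from a mean of 1770 CPM in WT to 190 CPM with vehicle. Mbp had a mean of 2450 CPM in WT (327 to 3890) and 2.78 CPM with vehicle, Mag 170 and 0.163 CPM, Mog 3.02 and 0.0665 CPM, and Sox10, a transcription factor of the lineage, 501 and 47.8 CPM. The sum of 5 astrocyte genes was 5750 to 10900 CPM in WT and 2450 to 3000 CPM with vehicle, with 4 of 5 lower. Aldh1l1 did not pass there, with means of 688 CPM in WT and 1080 CPM with vehicle. With Igfbp2 its mean was 1650 CPM, higher than in WT (1.26 log2, edgeR adjusted p = 0.0277). The sum of 5 neuronal genes was 593 to 761 against 480 to 544 CPM, also with 4 of 5 lower. Map2 made up most of it, with means of 569 and 480 CPM, whereas Dcx went from 66.6 to 7.75 CPM and Rbfox3 did not pass. Neural stem cell markers (7 genes) summed to 2330 to 7770 CPM in WT and 7550 to 8150 CPM with vehicle. Nes and Fabp7 were higher, Sox2, Pax6, Prom1 and Hes5 were lower, and Vim did not pass (edgeR adjusted p = 0.0636). Vim and Fabp7 made up most of this sum, with means of 4040 and 2670 CPM with vehicle. The WT cultures were widely spread in Vim, from 626 to 4570 CPM, and overlapped the vehicle range of 3850 to 4310 CPM. With Igfbp2 these sums were 2020 to 2130, 2830 to 3790, 430 to 456 and 7340 to 7890 CPM, in the order oligodendrocyte, astrocyte, neuron and stem cell. The 5 microglia genes were near 0 in every library, with a sum of at most 1.44 CPM, and the 4 mesenchymal and endothelial genes reached at most 24.2 CPM. The part of these cell types in the levels of Smarcal1 and the other 9 genes was not tested.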

How the data were processed

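RNA of 12 NSC cultures was measured, with groups and replicate numbers taken from the labels. Per the labels, the authors aligned to GRCm38 with Bowtie2 and estimated abundances with RSEM, and the annotation release and the strand setting are not given in the sources used here. They deposited per library the expected count per gene, the TPM and the FPKM made by RSEM, the last not used here. A merged table deposited by the authors holds a score equal to TPM times the transcript number of the gene (within 1% for 100% of values above 0), and only its gene symbols were used.

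Expected counts were rounded, filtered with filterByExpr (15706 of 45792 genes, with 99.91% of the counts), scaled by TMM and fitted with the quasi-likelihood test of edgeR 4.0.16 in R 4.3.3 to all 12 libraries with a mean per group, with Benjamini-Hochberg adjustment across the genes tested. Gene positions are those of GENCODE M21 (GRCm38). The alternatives used DESeq2 1.42.0, limma 3.58.1 on log2 TPM with a pseudocount of 1 or 0.1, the analysis of variance with a Tukey test that the study applied to TPM, other filters and scalings, the culture number as a block, and the omission of single libraries. The tests were tried on simulated data. The libraries were counted as separate, since chi-square per degree of freedom was 4.62 for the closest pair. This value cannot show that the cultures came from separate animals. Every vehicle-treated culture held both Y-linked RNA and Xist, and whether the cultures of a group shared a preparation was not tested. The SEs and adjusted p values take the 4 cultures of each group as independent.

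The members and lists were chosen with earlier results of these data known. Named genes were the 10 members, the 5 most like Smarcal1 among those averaging 1 CPM or more, the 5 tested genes on each side of it, up to 4 genes per list with the largest difference between vehicle-treated Ncf1-/- and WT, Ncf1 and the sex-linked genes. Genes named beyond this, where a count was small, were chosen after their values were seen. From the lists, 2 genes are not reported here and were left out of the counts and sums.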

Additional observations from a re-analysis of the deposited data

Results flagged for a closer look

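In 2 of the 30 groups of 4 cultures examined (10 genes in 3 groups), the highest or lowest culture stood apart from the others by more than Dixon's 95% criterion for 4 samples, and chance flags about 1 in 20 such groups. Rad54l in vehicle-treated Ncf1-/- culture 4 had 28.3 CPM, against 25.7 to 26.1 CPM in the other cultures of the group. Rad54b in vehicle-treated Ncf1-/- culture 1 had 7.27 CPM, against 9.66 to 9.82 CPM in the others.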

How the results depend on the processing

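Of 610 values of single genes under the alternatives, 547 stayed the same. For the 9 tested genes this means direction and side of the threshold, and for Smarcal1, which was not tested, direction and size. The number of the 9 genes called between vehicle-treated Ncf1-/- and WT stayed between 5 and 8 in all alternatives (7 to 8 with 1 library left out). Between the treatments it was 1, and became 7 with library totals and with limma on log2(TPM + 1), 6 with limma on log2(TPM + 0.1), 3 with the Tukey test on TPM and with only the 8 libraries compared, and 2 with a mean of at least 5 CPM. It was also 2 with the culture number as a replicate block over the 8 libraries, which held Hltf and Rad54l but, unlike the 8 libraries with no block, not Rad54b (adjusted p = 0.0569 and 0.0486). The numbers are those the methods describe as pairs, but the Y-linked levels go against shared animals, and same-numbered cultures correlated, after taking off the group means, with r from −0.059 to 0.015 in the 4 pairs, against −0.214 to 0.219 in the 12 other combinations, so that not every culture correlated best with its own number. The count ran from 1 to 2 with 1 library left out (2 without WT culture 3 or 4). Between Igfbp2-treated Ncf1-/- and WT it was 9, fell to 3 with the Tukey test (0 higher and 3 lower), and was 9 whichever library was left out. Differences near 0 changed sign. Hltf between vehicle-treated Ncf1-/- and WT was 0.166 with library totals, 0.002 with no filter, 0.010 with only the 8 libraries compared, and −0.087 to 0.014 with 1 library left out. Between the treatments Zranb3 was −0.213, −0.001, −0.278, −0.382 and −0.380, with library totals, a mean of at least 5 CPM, limma on log2(TPM + 1), limma on log2(TPM + 0.1) and the Tukey test in turn, and Ercc6 was −0.206 with library totals, −0.249 and −0.391 with limma and −0.384 with the Tukey test. With 1 library left out, Shprh ran from −0.171 to 0.010 and Ercc6 from −0.039 to 0.145 between the treatments. On TPM the median log2 fold change of all genes between the treatments was −0.35, −0.41 and −0.43 with a pseudocount of 1, of 0.1 and with the Tukey test, and genes called higher and lower numbered 119 and 4843, 97 and 4898, and 64 and 2085. Over the whole table, 8978 of 15706 genes were called between vehicle-treated Ncf1-/- and WT. On these 3 TPM scales 5269 and 5208 of 12515 and 4329 of 27880 were called. All totals on the TPM scales are of these unlike numbers of genes tested. Between the treatments 3923 were called, against 5906 with library totals and 2149 with the Tukey test. With only the 8 libraries compared it was 5809, and with the culture number as a block 5423. A mean of at least 5 CPM gave 2769 of 11170, and 2325 and 2272 were called without vehicle culture 1 or 2. Between Igfbp2-treated Ncf1-/- and WT 9801 were called (4964 higher and 4837 lower), against 6858 (1538 and 5320), 6903 (1565 and 5338) and 5592 (965 and 4627) on the 3 TPM scales. The causes were not tested. Smarcal1 had 43 to 60 counts in vehicle-treated libraries, which limits the precision of its lowest levels.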
